A study of Mus musculus with 12 samples.

Results

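The genes described here are 35 that carry out or steer glycolysis, glycogen turnover and lactate handling in RAW264.7 cells, a murine macrophage line. They were taken by symbol from the deposited count table: all 35 matched an Ensembl gene ID among the 56941 in the table, and 34 of them were among the 15001 genes with enough counts to test. RNA was sequenced from 6 samples of uncompressed controls and 6 samples of compressed macrophages. Control cells lay on a porous cell culture insert under an agarose cushion alone for 24 h. Compressed cells lay under the same kind of cushion with a weight on top that applied 0.14 kPa, also for 24 h, so both groups were covered by agarose. A single cell line with no other treatment was used. Whether the samples of a group were grown as separate cultures is not stated in the sources used here. The p-values below therefore rest on the variation among these 12 samples, some or all of which may be technical.

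Glycolysis splits glucose into pyruvate in the cytosol and yields ATP without oxygen. Its flow is set at glucose entry, at hexokinase, at phosphofructokinase and at pyruvate kinase, and lactate dehydrogenase returns the NAD that the middle of the pathway uses up. Macrophages raise this pathway when they are activated or short of oxygen, and they keep a glycogen store that is filled by glycogen synthase and branching enzyme and emptied by glycogen phosphorylase. Many of these genes are known targets of hypoxia-inducible factor, which binds a core of ACGTG or GCGTG, and of Myc and MondoA, which bind the E-box CACGTG.

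Levels are given as CPM, counts scaled to 1e+06 per library over library sizes scaled by TMM, the scaling of edgeR, and folds are mean CPM of compressed over control. Total counts were 37948795 to 40463545 per control library and 33460807 to 39103987 per compressed library. All 9 macrophage markers were measured, at a summed 5458 to 5866 CPM in controls and 6646 to 7815 CPM in compressed libraries. Of these 9, edgeR called 4 higher and 3 lower, beside 24.5% and 21.9% of all tested genes. Among 13 markers of other cell types, Cd3e, Cd8a, Olig2 and Ly6g had no count in any library, and the summed level of the 13 was 0.477 to 0.945 CPM in controls and 0.727 to 1.10 CPM in compressed libraries. Compressed replicate 6 stood apart. Its mean chi-square per gene against other compressed libraries was 170 to 228, where the other compressed pairs lay between 3.52 and 16.9. It was the lowest of the 6 compressed libraries for 13 of 34 tested members and the highest for 9. It was kept in the results below, and values without it are given for the members whose call it changed.

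The region before the start of 5 members is shown first, because these genes cover the range of responses described below. Pgk1, Ldha and Gapdh are abundant genes that rose, Gbe1 had the largest increase among the well-counted members, and Slc16a1 was the member that fell. Sequences are the 250 bases before a RefSeq start, from the GRCm38.p6 assembly, written 5′ to 3′ on the gene's strand. None overlaps an annotated exon of GENCODE M21. Capitals mark ACGTG or GCGTG on either strand, the reverse complements being CACGT for the former and CACGC for the latter, and CACGTG holds ACGTG on both strands. The starts of Pgk1, Ldha, Gapdh and Gbe1 lie in an annotated GENCODE M21 transcript, and that of Slc16a1 does not.
Pgk1, chrX:106186850-106187099, plus strand: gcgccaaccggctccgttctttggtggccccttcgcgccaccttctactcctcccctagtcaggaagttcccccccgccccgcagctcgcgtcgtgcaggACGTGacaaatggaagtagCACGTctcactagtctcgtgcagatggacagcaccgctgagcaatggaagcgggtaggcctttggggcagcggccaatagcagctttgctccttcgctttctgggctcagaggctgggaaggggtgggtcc
Ldha, chr7:46846832-46847081, plus strand: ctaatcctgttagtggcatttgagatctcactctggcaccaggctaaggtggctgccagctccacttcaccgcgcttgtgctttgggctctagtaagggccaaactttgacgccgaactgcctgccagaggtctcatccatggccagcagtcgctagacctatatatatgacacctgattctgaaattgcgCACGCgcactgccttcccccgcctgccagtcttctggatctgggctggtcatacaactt
Gapdh, chr6:125165774-125166023, minus strand: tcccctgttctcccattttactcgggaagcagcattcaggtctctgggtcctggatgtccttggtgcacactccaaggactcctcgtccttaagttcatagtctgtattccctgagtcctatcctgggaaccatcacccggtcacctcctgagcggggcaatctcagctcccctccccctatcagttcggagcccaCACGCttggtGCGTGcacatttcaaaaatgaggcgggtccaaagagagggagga
Gbe1, chr16:70313699-70313948, plus strand: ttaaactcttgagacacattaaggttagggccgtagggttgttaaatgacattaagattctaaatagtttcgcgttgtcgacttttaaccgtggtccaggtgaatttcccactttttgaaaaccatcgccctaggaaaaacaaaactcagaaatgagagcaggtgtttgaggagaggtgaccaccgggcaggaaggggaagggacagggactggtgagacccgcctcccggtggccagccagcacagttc
Slc16a1, chr3:104638414-104638663, plus strand: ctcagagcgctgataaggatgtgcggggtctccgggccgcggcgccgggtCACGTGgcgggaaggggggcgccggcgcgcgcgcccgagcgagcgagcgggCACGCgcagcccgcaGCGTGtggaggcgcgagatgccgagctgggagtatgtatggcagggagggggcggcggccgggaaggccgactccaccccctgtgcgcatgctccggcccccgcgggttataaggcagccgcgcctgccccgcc
The Pgk1 sequence holds ACGTG 150 bases and CACGT 131 bases before the start. Gapdh holds CACGC and GCGTG at 54 and 44 bases, this start of Ldha holds CACGC at 59 bases, and Gbe1 holds none of these letters. Slc16a1 holds a CACGTG whose first base lies 200 bases before the start. A second RefSeq start of Ldha has 5 matches within 250 bases, among them CACGTG.

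RefSeq windows of 300 bases, from 250 before to 50 after a start, were given for 34 of the 35 members (not Slc2a3) and were searched on both strands. ACGTG or GCGTG was found for 28 of 34 members (82.4%), for 67.6% of the tested genes with a window and for 46.7% of all genes with a window. A gene counted if any of its windows matched. Per window the shares were 77.6% of the 49 member windows, 61.6% for tested genes and 43.8% of all windows. Per gene the share was 23 of 28 (82.1%) among members called higher and 5 of 6 among the others. The 6 members without these letters were Eno2, Gbe1, Gys1, Gpi1, Tpi1 and Bpgm, of which only Bpgm did not rise. CACGTG was found for 5 members (14.7%), namely Ldha, Pfkfb2, Pfkfb3, Pfkm and Slc16a1, and for 11.8% of tested genes. Per window it was found in 10.2% for members and 9.98% for tested genes. A match is a description of letters, and no test was made of these shares.

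Compressed macrophages had higher RNA levels of most of these 35 genes, from glucose import to lactate export and glycogen synthesis. Of 34 tested members, 29 were called higher, 1 was called lower (the lactate carrier Slc16a1) and 4 were not called (Pfkfb2, Pfkfb4, Bpgm and Pdha1), by edgeR's quasi-likelihood test at an adjusted p of 0.05 or less over all tested genes. Over all tested genes the same test called 24.5% higher and 21.9% lower. The median log2 fold change of the members was 0.51, beside 0.02 over all tested genes. An increase of more than 0.5 on the log2 scale was called for 17 members, beside 13.5% of all tested genes. The control and compressed libraries did not overlap for 27 of 34 members (79.4%), beside 33.6% of tested genes. Together the 35 members held 2.30% ± 0.042 of all counts in controls and 3.24% ± 0.116 in compressed libraries (SD, n = 6 each), and the lowest compressed library, at 3.03%, lay above the highest control, at 2.37%.

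**Figure D1:**
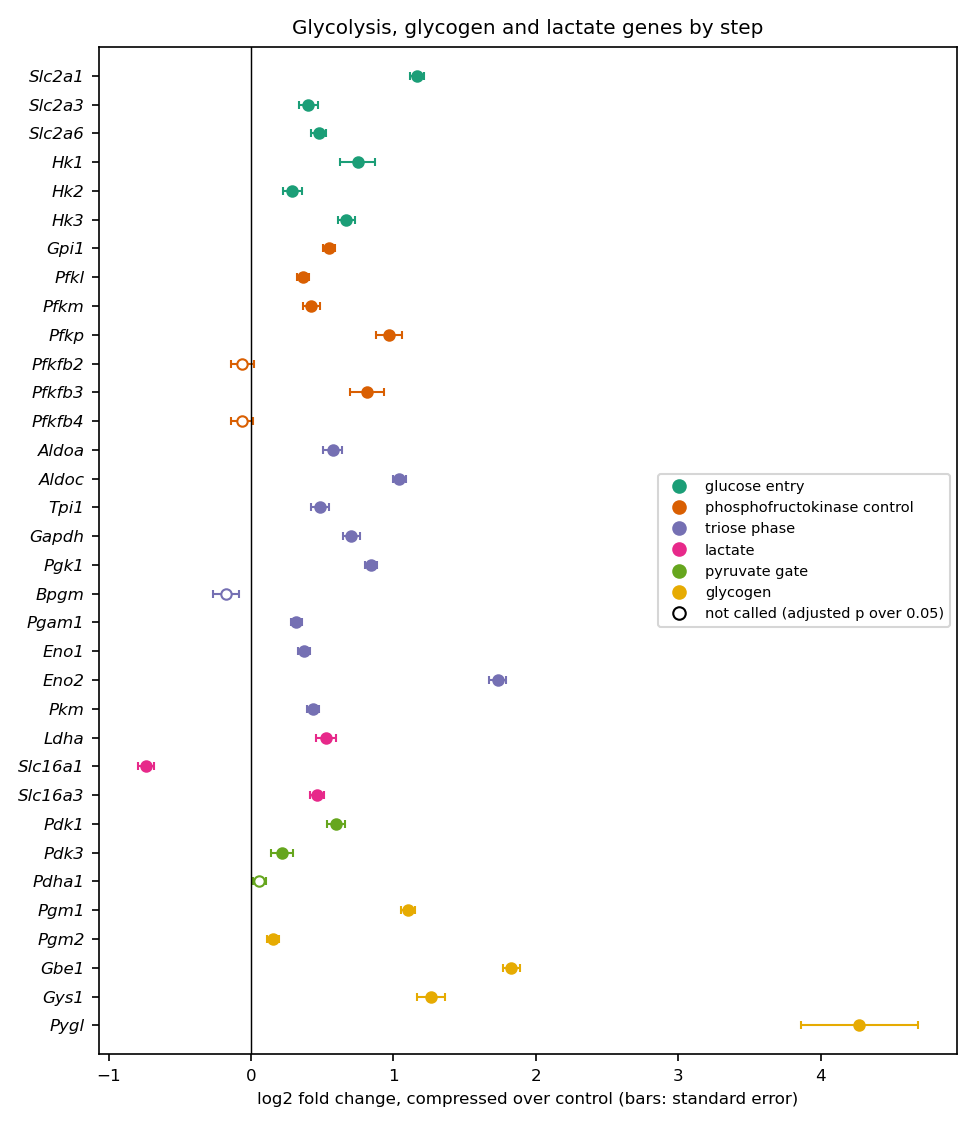
Log2 fold change of the 34 tested members, compressed over control, in the order of their steps, with the standard error of edgeR as bars. Filled points were called at an adjusted p of 0.05 or less: 29 lie to the right of 0 and Slc16a1 lies to the left, and the 4 open points are Pfkfb2, Pfkfb4, Bpgm and Pdha1.

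Without compressed replicate 6, 30 members were called higher and 2 lower, where edgeR called 33.8% of all tested genes higher and 32.2% lower. Pdha1 joined the higher members and Bpgm the lower ones. Of the 29 members called higher with all 12 libraries, 27 kept this call in every alternative fit that tested them at an adjusted p of 0.05, and the other 2 were Pdk3 and Pgm2. Because RNA was measured per sample, more cells with a high level and more RNA per cell cannot be told apart.

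All 6 genes of glucose entry rose. Slc2a1 encodes GLUT1, the most abundant of the 3 glucose carriers per length, and it ran from 398 to 453 CPM in controls (median 413) and from 874 to 991 CPM in compressed libraries (median 931). The groups lay far apart, and the increase was 2.24-fold, or 1.16 ± 0.048 on the log2 scale (SE, edgeR adjusted p = 7.55e-10). Slc2a3 encodes the high-affinity carrier GLUT3, and Slc2a6 a carrier of lysosomal membranes that inflammatory macrophages express. Slc2a3 ran from 41.2 to 44.0 CPM in controls and from 45.8 to 62.5 CPM under compression, a 1.32-fold increase (edgeR adjusted p = 0.000242). Slc2a6 ran from 67.9 to 72.3 CPM in controls and from 89.7 to 107 CPM under compression, a 1.39-fold increase (edgeR adjusted p = 3.62e-06). Neither gene had overlapping groups.

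Hexokinases trap glucose in the cell as glucose 6-phosphate. Hk1 ran from 300.5 to 337 CPM in controls (median 305) and from 321 to 612 CPM in compressed libraries (median 557), with a log2 fold change of 0.75 ± 0.12 (SE, edgeR adjusted p = 0.000199). Its groups overlapped through compressed replicate 6 alone, at 321 CPM, since the other 5 compressed libraries lay at 541 to 612 CPM. Hk2, the isoform that hypoxia and Myc induce in many cells, had the smallest increase of the 3. It ran from 222 to 253 CPM in controls (median 234) and from 231 to 309 CPM in compressed libraries (median 296), a 1.22-fold increase (edgeR adjusted p = 0.00311), and replicate 6 was again the low library. Hk3, a hexokinase of myeloid cells, ran from 142 to 158 CPM in controls and from 204 to 263 CPM under compression, a 1.59-fold increase with no overlap (edgeR adjusted p = 6.35e-07).

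**Figure D2:**
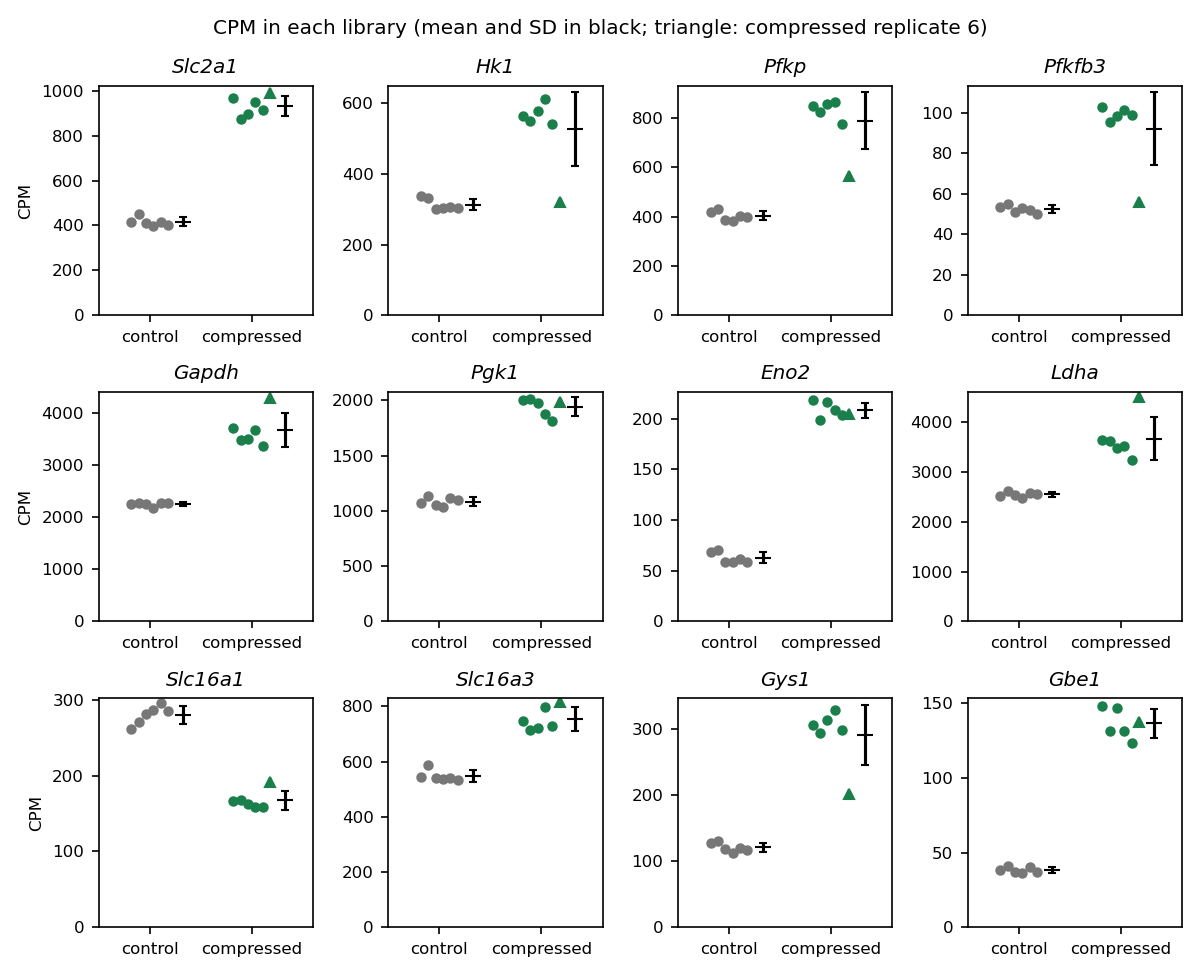
CPM of 12 members in each of the 6 control (grey) and 6 compressed (green) libraries, with mean and SD in black and compressed replicate 6 as a triangle. Each axis starts at 0. Replicate 6 lies among the controls for Hk1 (321 CPM) and just above them for Pfkfb3 (55.8 CPM), and it is the highest library for Gapdh (4296 CPM) and Ldha (4509 CPM).

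The phosphofructokinase step commits sugar to glycolysis. Gpi1, which makes its substrate, rose 1.46-fold, from 1003 to 1069 CPM in controls and 1414 to 1580 CPM under compression. All 3 phosphofructokinase genes rose. The platelet-type gene Pfkp ran from 381 to 430 CPM in controls (median 402) and from 563 to 864 CPM under compression (median 836), a log2 fold change of 0.97 ± 0.092 (SE, edgeR adjusted p = 1.31e-06). The lowest compressed value was that of replicate 6, and it still lay above all controls. The liver-type Pfkl rose 1.29-fold and the muscle-type Pfkm 1.34-fold, neither with overlap. Part of the Pfkp and Pfkm exons lies over exons of Pitrm1 and Senp1 on the other strand, and the strand setting of the counting is not given in the sources used here.

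The PFKFB enzymes make and break fructose 2,6-bisphosphate, the strongest activator of phosphofructokinase. Pfkfb3, whose kinase activity far exceeds its phosphatase activity, was the only 1 of the 3 that was called. It ran from 49.9 to 55.1 CPM in controls (median 52.4) and from 55.8 to 103 CPM in compressed libraries (median 98.5), with a log2 fold change of 0.81 ± 0.12 (SE, edgeR adjusted p = 8.6e-05). Its lowest compressed value, 55.8 CPM in replicate 6, lay just above the highest control, and the next was 95.5 CPM. Pfkfb4 ran from 30.4 to 33.9 CPM in controls (median 32.2) and from 23.3 to 34.4 CPM under compression (median 32.1), so the groups overlapped. Its log2 fold change was -0.06 ± 0.079 (SE, edgeR adjusted p = 0.548), and it was 0.0039 without replicate 6. Pfkfb2 had a log2 fold change of -0.06 ± 0.083 (SE, edgeR adjusted p = 0.57), from 10.8 to 13.4 CPM in controls and 9.13 to 12.9 CPM under compression. Its exons overlap those of Yod1 on the other strand.

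Of the 10 genes from aldolase to pyruvate kinase, 9 rose and Bpgm was not called. As a group they held most of the members' CPM: 14888 to 15767 CPM in each control library and 20575 to 23918 CPM in each compressed library. Pkm, pyruvate kinase of muscle type, had the highest level per length of all members at 1018 CPM per kilobase in controls and 1376 under compression, a 1.35-fold increase. Its CPM ran from 4920 to 5200 in controls and from 6414 to 7213 under compression. Aldoa, the main aldolase here, ran from 2499 to 2617 CPM in controls and from 3392 to 4554 CPM under compression, a 1.49-fold increase (edgeR adjusted p = 6.58e-06). Tpi1, which interconverts the trioses, rose 1.40-fold and Pgam1, the phosphoglycerate mutase, 1.24-fold, neither with overlap.

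Pgk1, phosphoglycerate kinase, makes the first ATP of the pathway, and its upstream sequence is shown above. It ran from 1038 to 1135 CPM in controls (median 1083) and from 1811 to 2015 CPM under compression (median 1979), a 1.79-fold increase (edgeR adjusted p = 5.66e-09). The compressed libraries, replicate 6 included, formed a narrow band far above the controls. Eno2, the neuron-type enolase, had the largest fold of this phase. It ran from 58.2 to 70.3 CPM in controls (median 60.2) and from 199 to 218 CPM under compression (median 207), a log2 fold change of 1.73 ± 0.059 (SE, edgeR adjusted p = 1.74e-10). Eno1, the common enolase, rose 1.29-fold from a mean of 2593 to 3355 CPM. Its near-identical copy Eno1b was counted at a mean of 460 CPM in controls and 642 CPM under compression, and how the authors' counting split reads between the 2 is not known. Aldoc, the brain-type aldolase, rose 2.06-fold, from 105 to 120 CPM in controls and 226 to 246 CPM under compression. Bpgm, which diverts the pathway to 2,3-bisphosphoglycerate, ran from 12.0 to 13.03 CPM in controls and from 8.92 to 14.1 CPM under compression. It had a log2 fold change of -0.17 ± 0.091 (SE, edgeR adjusted p = 0.136), and without replicate 6 one of -0.25 (edgeR adjusted p = 0.00106).

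Gapdh, the triose dehydrogenase, is also the internal control to which the study's PCR assays were scaled. It ran from 2185 to 2275 CPM in controls (median 2261) and from 3365 to 4296 CPM under compression (median 3589), a 1.63-fold increase with no overlap (edgeR adjusted p = 3.1e-07). Against the median of 12 other genes commonly used as references, measured in the same library, Gapdh stood at 2.44 ± 0.033 on the log2 scale in controls and 3.26 ± 0.053 under compression (SD, n = 6 each). The difference was 0.82, or 1.76-fold (two-sided exact permutation test over libraries, p = 0.00216, which is the smallest possible with 6 against 6). It was 0.63 against the mean of these genes and 0.86 against Actb alone. Pgk1, itself a member, is 1 of the 12.

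At the lactate step Ldha rose while the 2 lactate carriers among the members moved in opposite directions. Ldha, which makes the muscle-type lactate dehydrogenase that favours lactate, ran from 2481 to 2625 CPM in controls (median 2550) and from 3239 to 4509 CPM under compression (median 3579). This was a 1.44-fold increase (edgeR adjusted p = 2.75e-05), and it was 0.46 on the log2 scale without replicate 6, the highest library, beside 0.53 with it. Ldhb, the heart-type gene, had 1 count in the 6 control libraries together and 1 in the 6 compressed libraries, too few to test. Dehydrogenase RNA in these cells was therefore read almost wholly from Ldha in both groups.

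Slc16a3 encodes MCT4, the carrier known for lactate export from glycolytic cells. It ran from 533 to 589 CPM in controls (median 541) and from 713 to 815 CPM under compression (median 737), a 1.38-fold increase (edgeR adjusted p = 3.39e-06). Slc16a1 encodes MCT1, which carries lactate in either direction and has a higher affinity for it. It ran from 261 to 295 CPM in controls (median 283) and from 158 to 191 CPM under compression (median 165), so all compressed libraries lay below all controls. Its log2 fold change was -0.74 ± 0.055 (SE, edgeR adjusted p = 1.2e-07), and it was the only member called lower with all 12 libraries. Slc16a1 was called lower in all 19 alternatives run, between -0.80 and -0.71. A further lactate carrier gene, Slc16a7, is not a member and was also called lower, with a log2 fold change of -0.33 (edgeR adjusted p = 0.00689). Its mean was 21.8 CPM in controls and 17.3 CPM under compression, with overlapping groups. The promoter sequences of Ldha and Slc16a1 shown above both hold the searched letters.

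At the entry of pyruvate into mitochondria, the kinases that switch off pyruvate dehydrogenase rose and the gene for its catalytic subunit was not called. Pdk1 ran from 145 to 158 CPM in controls (median 150) and from 186 to 247 CPM under compression (median 235), a 1.52-fold increase (edgeR adjusted p = 3.87e-06). Pdk3 ran from 52.6 to 57.1 CPM in controls (median 53.4) and from 53.6 to 78.25 CPM under compression (median 62.2), with overlapping groups and a log2 fold change of 0.22 ± 0.077 (SE, edgeR adjusted p = 0.033). This call was lost in 10 of 19 alternatives, among them leaving out any of 5 control libraries, and without replicate 6, its highest library, the log2 fold change was 0.14 (edgeR adjusted p = 0.0056). Pdha1, the E1 alpha subunit, ran from 131 to 140 CPM in controls and from 130 to 149 CPM under compression, with a log2 fold change of 0.06 ± 0.044 (SE, edgeR adjusted p = 0.303). It was 0.079 without replicate 6 (edgeR adjusted p = 0.0231). Exons of Pdha1 overlap Map3k15 on the other strand.

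All 5 members listed under glycogen rose, and 3 of them had larger fold changes than any gene of glucose entry. Gbe1, the branching enzyme, ran from 36.5 to 41.3 CPM in controls (median 37.7) and from 123 to 148 CPM under compression (median 134), a 3.55-fold increase, or 1.83 ± 0.057 on the log2 scale (SE, edgeR adjusted p = 1.74e-10). Gys1, the glycogen synthase of muscle type, ran from 112 to 130 CPM in controls (median 119) and from 201 to 329 CPM under compression (median 301), a 2.40-fold increase (edgeR adjusted p = 2.12e-07). Replicate 6 gave the lowest compressed value of Gys1, 201 CPM, and the next was 293 CPM. Gys1 shares 6.5% of its exonic bases with Ruvbl2 on the other strand. Both genes make glycogen, and no compressed library of either overlapped the controls.

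Pgm1 moves phosphate between the 1 and 6 positions of glucose, the link between glucose 6-phosphate and glycogen, and Pgm2 is a related mutase listed with it. Pgm1 ran from 123 to 142 CPM in controls (median 132) and from 263 to 296 CPM under compression (median 289), a 2.15-fold increase (edgeR adjusted p = 1.79e-09), and some of its exonic bases lie over Itgb3bp on the other strand. Pgm2 rose 1.11-fold, from 43.8 to 49.2 CPM in controls and 51.1 to 54.4 CPM under compression (edgeR adjusted p = 0.00669), a call lost with library size alone (adjusted p = 0.0805) and with no low-count filter (adjusted p = 0.0599). Pygl, the liver-type phosphorylase that breaks glycogen down, had the largest fold of all members and the lowest level of those tested. It had 20 counts in the 6 control libraries together, from 0 to 0.276 CPM, and 353 counts in the 6 compressed libraries, from 1.16 to 2.34 CPM. The log2 fold change was 4.27 ± 0.41 (SE, edgeR adjusted p = 1.51e-06), and the lowest compressed library lay above the highest control. Pygb, the phosphorylase gene with the most counts here, is not a member and was called lower. It ran from 71.9 to 77.1 CPM in controls and from 44.2 (replicate 6) to 64.4 CPM under compression. Its log2 fold change was -0.33 ± 0.077 (SE, edgeR adjusted p = 0.00285).

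Genes for the same step did not rise by the same amount, so the makeup of several families shifted. The change in the ratio of counts of 2 members within a library was compared between the groups for 14 pairs by exact permutation tests, two-sided, with p-values adjusted over the 14. For 9 pairs the groups did not overlap, and the exact permutation test gave each of them an adjusted p of 0.00337. The pairs were chosen with earlier results of these data known, and some share a gene. Their p-values describe these 14 pairs alone, and no share over other gene pairs was taken. Slc16a3 gained on Slc16a1 by 1.20 on the log2 scale, from a median count ratio of 1.90 in controls to 4.45 under compression. Eno2 gained 1.36 on Eno1, Pfkfb3 gained 0.85 on Pfkfb2, Pfkp gained 0.59 on Pfkl and Aldoc gained 0.48 on Aldoa. The isozyme that gained was the less abundant 1 per length for Eno2, Pfkp and Aldoc. In CPM, however, Pfkp lay above Pfkl in both groups, at means of 404 and 337 CPM in controls and 789 and 435 CPM under compression. The log2 ratio of Slc2a3 to Slc2a1 fell by 0.77 and that of Slc2a6 to Slc2a1 by 0.69, and the ratio of Pfkfb4 to Pfkfb3 fell by 0.86. Gys1 and Pygl are not genes for the same step, since synthase and phosphorylase oppose each other. The log2 ratio of Gys1 to Pygl fell by 3.47 with a constant of 0.5 added to counts. With a constant of 5 it fell by 1.96, since Pygl had few counts in controls. Pygb, which held most phosphorylase counts, fell while Gys1 rose, and the ratio of Gys1 to Pygb was not among the 14 pairs.

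The ratio of Hk2 to Hk1 fell by 0.44 on the log2 scale with overlapping groups (adjusted p = 0.00606, exact permutation test). Pdk1 gained 0.39 on Pdk3 (adjusted p = 0.0193, exact permutation test), with compressed replicate 6 below the other compressed libraries. The ratio of Pfkm to Pfkl differed by 0.05 (adjusted p = 0.336, exact permutation test), and that of Hk3 to Hk1 by -0.06 (adjusted p = 0.654, exact permutation test), or -0.15 without replicate 6 (adjusted p = 0.0253, exact permutation test). The ratio of Ldha to Ldhb differed by 0.34 (adjusted p = 0.427, exact permutation test) and rests on the added constant, because Ldhb was at 0 in 10 of 12 libraries.

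**Figure D3:**
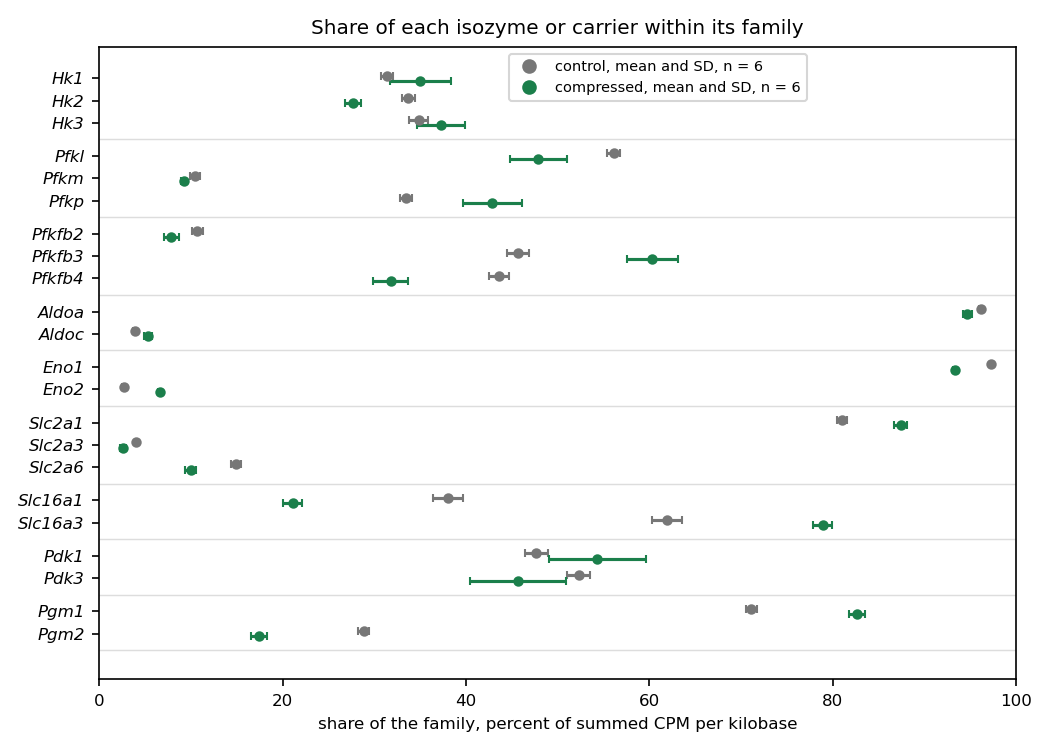
Share of each isozyme or carrier among the members of its family, as percent of their summed CPM per kilobase. Mean and SD are over 6 control (grey) and 6 compressed (green) libraries. Slc16a3 went from 61.9% to 78.9% of its pair, Pfkfb3 from 45.7% to 60.3% of 3 genes, and Eno2 from 2.69% to 6.63% of its pair.

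Measured per length, the 3 hexokinases held similar shares in controls, and Hk2 held the smallest under compression. In controls Hk3 held 34.8% ± 1.02 of the family's CPM per kilobase, Hk2 33.7% ± 0.713 and Hk1 31.4% ± 0.643 (SD, n = 6). Under compression Hk3 held 37.3% ± 2.62, Hk1 35.04% ± 3.36 and Hk2 27.6% ± 0.870 (SD, n = 6). Pfkl kept the largest share of the phosphofructokinases per length, at 56.1% ± 0.668 in controls and 47.9% ± 3.10 under compression, beside 33.5% ± 0.662 and 42.9% ± 3.19 for Pfkp. This order rests on the annotated exonic lengths, 13401 bases for Pfkp and 6675 for Pfkl, and in CPM Pfkp was the higher of the 2. Pfkfb3 and Pfkfb4 were near each other in controls, at 45.7% ± 1.24 and 43.6% ± 1.09, and apart under compression, at 60.3% ± 2.75 and 31.8% ± 1.95. Slc2a1 held 81.0% ± 0.573 of the 3 glucose carriers in controls and 87.4% ± 0.714 under compression. Pgm1 held 71.1% ± 0.616 of the phosphoglucomutase pair in controls and 82.6% ± 0.870 under compression. The monocarboxylate pair summed to 166 CPM per kilobase in controls and 179.5 under compression, so that family changed more in makeup than in total.

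The further genes of the pathway had increases and decreases in closer numbers. Of 74 further genes of glycolysis, gluconeogenesis, lactate, glycogen and the pyruvate gate, 52 were tested, 18 were called higher and 12 lower by edgeR, and their median log2 fold change was 0.01. Over all tested genes edgeR called 24.5% higher and 21.9% lower, with a median of 0.02. The list of members was drawn up with results of these data known, so the contrast between the lists describes them and was not tested. Among the further glycolytic and lactate genes (23 tested, 8 higher, 6 lower), Bsg had the largest increase. Bsg encodes basigin, the chaperone that brings MCT1 and MCT4 to the membrane, and it ran from 412 to 445 CPM in controls and from 813 to 1276 CPM under compression, a log2 fold change of 1.12 ± 0.097 (SE, edgeR adjusted p = 5.3e-07). Galk1 (galactokinase) rose by 0.78, Slc37a4 (the glucose 6-phosphate carrier of the endoplasmic reticulum) by 0.73, and Galm (galactose mutarotase) and the glucose carrier Slc2a8 by 0.53 each on the log2 scale. Gpd1l, a glycerol 3-phosphate dehydrogenase, fell by 0.57 on the log2 scale, from 98.6 to 103 CPM in controls to 64.4 to 70.7 CPM under compression.

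Among further glycogen genes, 19 were tested, 8 were called higher and 3 lower by edgeR, beside 24.5% and 21.9% of all tested genes. Epm2a, which encodes the glycogen phosphatase laforin, ran from 7.13 to 8.75 CPM in controls and from 18.9 to 35.6 CPM under compression, a log2 fold change of 1.99 ± 0.14 (SE, edgeR adjusted p = 5.34e-08). Ppp1r3b, which brings protein phosphatase 1 to glycogen, had 21 counts in controls together and 263 under compression, and a log2 fold change of 3.79 ± 0.37 (SE, edgeR adjusted p = 1.67e-06). Ugp2, which makes the UDP-glucose that glycogen synthase uses, rose by 0.72 on the log2 scale. The muscle phosphorylase Pygm fell by 1.00 on the log2 scale, from 1.11 to 1.91 CPM in controls to 0.694 to 0.974 CPM under compression, opposite in direction to Pygl. At the pyruvate gate (10 tested, 2 higher, 3 lower), the kinase Pdk2 ran from 0.954 to 1.36 CPM in controls and from 1.38 to 2.37 CPM under compression, a log2 fold change of 0.82 ± 0.14 (SE, edgeR adjusted p = 0.000364).

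A list of 15 genes, called regulators here, holds transcription factors, genes that act with or against them, and the MondoA targets Txnip and Arrdc4. Of these 15, 14 were tested, 8 were called higher and 0 lower by edgeR. None was lower at an unadjusted p under 0.05 or by DESeq2. The median log2 fold change was 0.30, beside 0.02 over all tested genes, of which edgeR called 24.5% higher and 21.9% lower. Egln3, an oxygen sensor that hypoxia-inducible factor itself induces, had 60 counts in controls together and 885 under compression. It ran from 0.129 to 0.385 CPM in controls and from 3.63 to 5.07 CPM under compression, a log2 fold change of 4.04 ± 0.19 (SE, edgeR adjusted p = 2.52e-09). Myc ran from 23.2 to 26.3 CPM in controls and from 50.5 to 66.55 CPM under compression, a log2 fold change of 1.21 ± 0.063 (SE, edgeR adjusted p = 4.97e-09). Egln1 rose by 0.92 on the log2 scale and Vhl, which marks hypoxia-inducible factor for breakdown, by 0.61. Arrdc4 and Txnip, which MondoA induces when sugar phosphates build up, had log2 fold changes of 0.91 and 0.54, both called.

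Hif1a, a subunit of hypoxia-inducible factor, ran from 176 to 189 CPM in controls (median 185) and from 152 to 243 CPM under compression (median 230), with a log2 fold change of 0.25 ± 0.094 (SE, edgeR adjusted p = 0.0396). Compressed replicate 6 was its lowest library, and the call was lost in 16 of 19 alternatives, among them leaving out any 1 of the other libraries. Mlx, the partner of MondoA, had a log2 fold change of 0.17 (edgeR adjusted p = 0.0434), lost in 12 of 19 alternatives. Epas1 (0.34), Arnt (0.15), Mlxip, the gene of MondoA (0.15), Max (-0.06), Egln2 (-0.09) and Hif1an (-0.16) were not called on the log2 scale, and Mlxipl had 9 counts in controls and 25 under compression, too few to test. Without replicate 6, edgeR called 11 regulators higher and 2 lower, beside 33.8% and 32.2% of all tested genes. The log2 fold changes were then 0.34 for Hif1a, 0.25 for Arnt, 0.48 for Epas1 and 0.29 for Mlxip, all called higher, and -0.13 for both Max and Egln2, called lower.

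Neighbouring pathways did not rise with the members. Over all tested genes edgeR called 24.5% higher and 21.9% lower, the shares to set beside the counts here. Of 8 pentose phosphate genes, 0 were called higher and 2 lower by edgeR, with 0 higher at an unadjusted p under 0.05 and 0 by DESeq2, and the median log2 fold change was -0.10. The 2 were Rpia (-0.39), named because the count is small, and Tkt (-0.13), both of the non-oxidative branch. G6pdx, which opens the pathway, had a log2 fold change of 0.04 (edgeR adjusted p = 0.594). Of 16 genes of the tricarboxylic acid cycle, 0 were called higher and 6 lower by edgeR, again with 0 higher at an unadjusted p under 0.05 and 0 by DESeq2, and the median was -0.11. The largest decreases were those of Ogdh (-0.40) and Idh3a (-0.37). Without replicate 6, edgeR called 12 of the 16 lower and 0 higher, and of the pentose phosphate genes 4 lower and 1 higher (G6pdx). In that fit it called 33.8% of all tested genes higher and 32.2% lower.

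**Figure D4:**
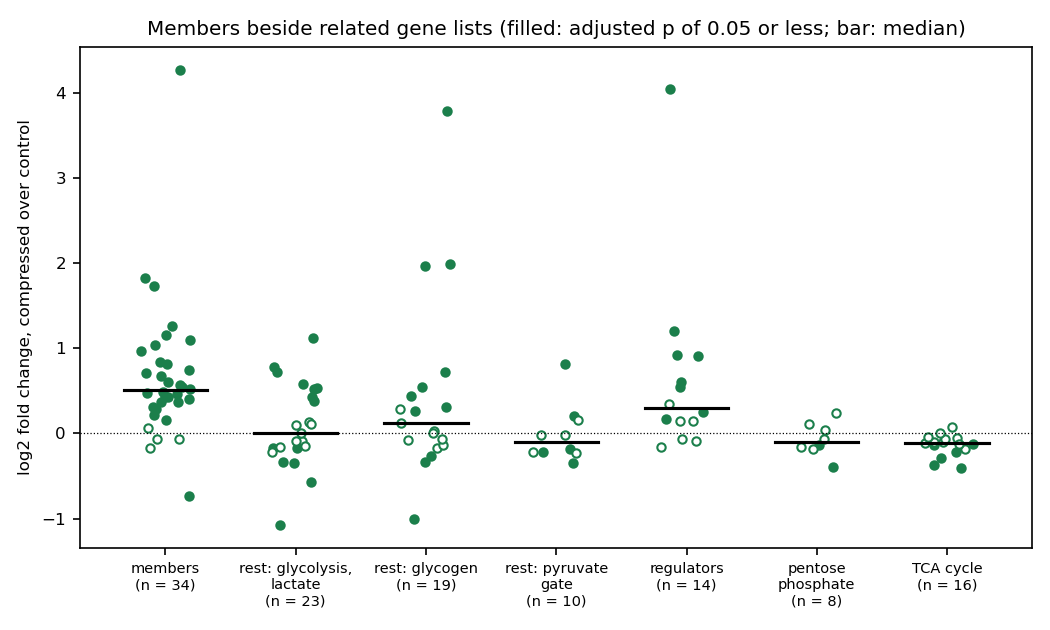
Log2 fold change, compressed over control, of tested genes in 7 lists, 1 point per gene, filled where edgeR called it at an adjusted p of 0.05 or less, with the median as a bar. The median is 0.51 for the 34 members, 0.30 for 14 regulators, -0.10 for 8 pentose phosphate genes and -0.11 for 16 genes of the tricarboxylic acid (TCA) cycle.

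Compressed replicate 6 departed from the other compressed libraries in a way that moved with transcript length. Its deviation from the group correlated with exonic length at a Spearman rho of -0.547 over 14647 genes and -0.657 over the 34 members, which share 1 library and are not independent. In the other 11 libraries the rho over all genes lay between -0.154 and 0.301. Over the members it ran in those libraries from -0.448 (control replicate 6) to 0.574 (control replicate 1). The 9 members longer than 6000 bases had a median deviation of -0.327 on the log2 scale in replicate 6, and the 7 shorter than 3000 bases one of 0.015. Hk1 and Pfkfb3, both long, were furthest below the other compressed libraries, at -0.81 and -0.82. Across members, the log2 fold change between the groups correlated with length at a rho of 0.114, and removal of the length trend left 29 members called higher and 1 lower. The part of RNA quality in these values was not tested.

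**Figure D5:**
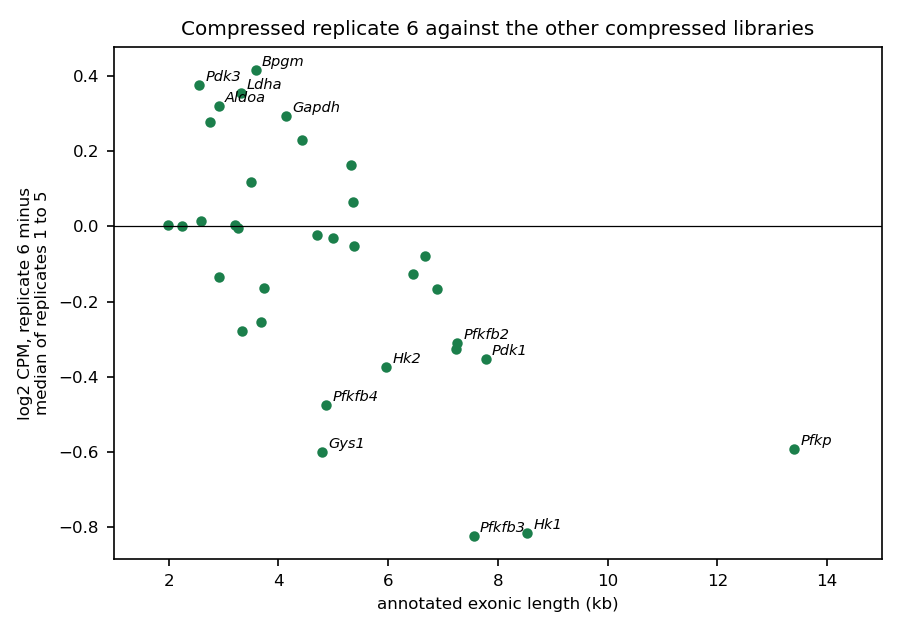
Log2 CPM of compressed replicate 6 minus the median of compressed replicates 1 to 5 (vertical) against annotated exonic length in kilobases (horizontal), 1 point per tested member. Hk1, Pfkfb3 and Pfkp, all over 6 kilobases, lie at -0.81, -0.82 and -0.59, and Ldha, Gapdh and Aldoa lie above 0.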

How the data were processed

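Reads were aligned by the authors with STAR 2.7.2, and the values they deposited are raw counts, whole numbers with 1 row per Ensembl gene. The submitters' processing notes name the GRCm39 assembly, and libraries were directional and enriched for mRNA. How reads were counted, and with which strand setting, is not given in the sources used here, so exons shared with a gene on the other strand leave a count uncertain. Names (51948 of 56941 IDs, 99.49% of counts) and exonic lengths came from GENCODE M21 and promoter sequences from RefSeq, both on GRCm38, so the counts were given no genome position.

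The tools were edgeR 4.0.16 and DESeq2 1.42.0 (R 4.3.3) and Python 3.11.15. After filterByExpr (minimum count 10) and TMM scaling, 15001 genes entered edgeR's quasi-likelihood F test with condition as the only term. A gene was called where its Benjamini-Hochberg adjusted p over these genes did not exceed 0.05. Each SE was obtained as the size of the log2 fold change divided by the root of F. Ratios used log2 counts plus 0.5 and an exact permutation test. CPM per kilobase was used to set levels of different genes side by side. The length of a gene was that of all its annotated exons merged, so the order of isozymes per length can differ from that in CPM. The edgeR fit was also run on simulated counts without an outlying library and with far fewer changed genes than were called here. Its outcome is not used for the results.

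The members, gene lists and pairs were chosen with earlier results of these data known. All 35 members are named. Of the other lists, called genes were named if their higher group averaged 1 CPM or more and their log2 fold change was 0.5 or more in size, up to 5 per list and direction, and all regulators and retrocopies were named. Pygb, Eno3 and Slc16a7 had smaller changes and were named because they share a step with members. A few genes of the reference and marker lists are not reported here. The 5 promoter sequences were chosen after the values were seen. Alternatives were DESeq2, RLE factors, library size alone, other filters, a replicate block, removal of a length trend, stricter thresholds, other constants or references, a window of 200 bases, each library left out and, added after seeing the data, retrocopy counts added to their parent gene.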

Additional observations from a re-analysis of the deposited data

Results flagged for a closer look

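In 70 groups of 6 libraries, 1 per member and condition, 16 had a highest or lowest library far from the other 5 by Dixon's test, which chance does in about 1 of 20 groups. Of these, 9 were compressed replicate 6, the lowest library 7 times and the highest 2 times. It was lowest for Hk1 (321 CPM, the others 541 to 612), Hk2 (230.6 CPM, the others 293 to 309), Pfkp (563.3 CPM, the others 776 to 864), Pfkfb3 (55.77 CPM, the others 95.5 to 103), Pfkfb4 (23.35 CPM, the others 30.6 to 34.4), Pdk1 (186.1 CPM, the others 223 to 247) and Gys1 (201.3 CPM, the others 293 to 329). It was highest for Ldha (4509 CPM, the others 3239 to 3641) and Slc16a1 (191.4 CPM, the others 158 to 168).

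The other 7 lay in libraries that did not stand apart. Control replicate 2 was highest for Slc2a1 (452.8 CPM) and Slc16a3 (588.9 CPM), control replicate 4 was lowest for Gapdh (2185 CPM) and Pgm2 (43.78 CPM), and compressed replicate 5 was lowest for Pgam1 (454.3 CPM). Ldhb had a single count in control replicate 2 (0.02431 CPM) and a single count in compressed replicate 2 (0.02692 CPM). For Slc2a1, Slc16a3, Gapdh, Pgm2 and Pgam1 the outlying library did not bring the groups into overlap.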

How the results depend on the processing

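Of the 34 tested members, 29 kept their call in every alternative fit that tested them at an adjusted p of 0.05. The exceptions were Pdk3, Pgm2, Bpgm, Pdha1 and, in sign alone, Pfkfb4. Members called higher numbered 17 where a log2 fold change over 0.5 was also required, and members called lower numbered 2 with library size alone and 2 without compressed replicate 6. With 1 library left out, between 28 and 30 members were called higher and 1 to 2 lower, and of the rest of the pathway 14 to 23 higher and 10 to 19 lower, of the regulators 6 to 11 higher and 0 to 2 lower, of the pentose phosphate genes 0 to 1 higher and 2 to 4 lower, and of the tricarboxylic acid cycle 0 higher and 5 to 12 lower. The high ends came without compressed replicate 6, where edgeR called 33.8% of all tested genes higher and 32.2% lower. With library size alone, 1 regulator, 4 pentose phosphate genes and 10 genes of the cycle were called lower, and with the length trend removed 1 regulator was lower and 1 pentose phosphate gene higher. Only 1 pentose phosphate gene was lower with no low-count filter.

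The sign turned for Pfkfb4 (0.0039 without compressed replicate 6, the others left out in turn giving as low as -0.094), Pdha1 (-0.0039 with library size alone) and the retrocopy Pgam1-ps2 (-0.0039 without compressed replicate 2, the others giving up to 0.133). The log2 ratio of Ldha to Ldhb was called at 0.336 with a constant of 5 and lay between 0.0900 and 0.585 with 1 library left out, and was called at the upper value, without compressed replicate 2. The ratio of Hk3 to Hk1 lay between -0.148 and -0.015, called at the lower value, without compressed replicate 6. A constant of 0 could not be used for Ldha to Ldhb and Gys1 to Pygl, which have counts of 0. The causes were not tested.

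Replicate numbers were not taken as pairs, since the deviations of same-numbered libraries correlated at -0.115 to 0.040 and no label says that a number marks a shared batch. With a replicate block, edgeR called 6393 genes in place of 6960 and 1 pentose phosphate gene lower. Under the replicate block in the exact permutation test, the Pdk1 to Pdk3 ratio (0.386, adjusted p = 0.0729) was not called and the Ldha to Ldhb ratio (0.336, adjusted p = 0.0398) was. Counts were too few to test for Ldhb, with 1 count per group, and were few for Pygl in controls.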

Other observations

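Genes often used to scale PCR assays did not all keep their level. Among the reference genes that Gapdh was set against, edgeR called Pgk1 and B2m higher at an adjusted p of 0.05 or less, by 0.84 and 0.36 on the log2 scale. Sdha fell by 0.21, Tbp by 0.17 and Gusb by 0.10 on the log2 scale. Genes that were not called had log2 fold changes of 0.21 for Rplp0, 0.11 for Hprt, -0.13 for Ywhaz, -0.13 for Ppia and -0.14 for Actb. These genes were named because Gapdh was set against them.

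Of 9 tested retrocopies of members, edgeR called 3 higher and 0 lower at an adjusted p of 0.05 or less, with 4 higher and 0 lower at an unadjusted p under 0.05, and 3 higher and 0 lower by DESeq2. Over all tested genes edgeR called 24.5% higher and 21.9% lower. Eno1b rose by 0.48 on the log2 scale, Gapdh-ps15 by 0.85 and Aldoart1 by 0.43, and each had a parent gene that rose. The others had log2 fold changes of 0.37 for Pgk1-rs7, 0.30 for Aldoart2, 0.26 for Ldha-ps2, 0.21 for Tpi-rs11, 0.11 for Pgam1-ps1 and 0.07 for Pgam1-ps2. Eno1b was counted at a mean of 460 CPM in controls, and each of the others at under 4 CPM. When the counts of retrocopies were added to their parent gene, 29 members were called higher and 1 lower.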
